A study of Mus musculus with 12 samples.

Results

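Cells labelled as cones, sorted by EGFP from degenerating mouse retinas, were compared between 220 and 110 days of age across all measured genes. The members are the samples labelled as EGFP cones of these ages, 8 of the 12 arrays in the series, with 4 arrays at 110 days and 4 at 220 days. All were from C3H/HeNCrl mice, which carry the Pde6b rd1 mutation, and both ages therefore share the retinal degeneration, so that no array of a healthy retina enters. Between P21 and P28 the mice received under the retina an adeno-associated virus in which the mCAR promoter, from the mouse cone arrestin-3 gene, drove EGFP. Each array was hybridised with RNA of 500 cells sorted by fluorescence, and the labels call the arrays biological replicates without saying how many animals a sort came from. The other 4 arrays of the series, from 300 cells sorted for eNpHR-EYFP at 165 days, served here for the estimate of the spread and for the repair of a shift in the deposited table.

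Mutation of the rod phosphodiesterase gene Pde6b kills rods early, after which cones lose their outer segments and light response and persist for months as cell bodies. Cone bipolar cells, which contact cones directly, carry the cone signal to the inner retina. ON types read it through the glutamate receptor Grm6 and the channel Trpm1, and OFF types through kainate receptors such as Grik1. Amacrine cells, the inhibitory interneurons of the inner retina, and Müller glia, which span its whole depth, are the other likely sources of RNA in a sort of retinal cells.

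Values are log2 of the deposited RMA intensity, given in the order of replicates 1 to 4. The median intensity was 6.6 to 7.1 and the 95th percentile 114.7 to 134.86 over the EGFP arrays. Since arrays count no reads, their number, 4 per age, limits the precision. The number of sorted cells was the same at both ages, but in these bulk samples fewer cells of a type and less RNA per cell cannot be told apart.

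The label of the cells was first checked against cone genes. Arr3, the arrestin whose promoter drove EGFP, stood at 4.58, 8.92, 9.64 and 5.29 at 110 days and at 6.72, 8.16, 8.42 and 8.40 at 220 days. Replicates 1 and 4 of 110 days thus stood apart from all other EGFP arrays, and replicate 1 of 220 days was the lowest of its age. The short-wave opsin gene Opn1sw followed the same order at 110 days, with 2.81, 7.96, 8.35 and 4.43, and stood at 6.63, 6.65, 7.70 and 7.48 at 220 days. Both stood far above 2.85, the median level over genes, on 6 of the 8 arrays, while on replicate 1 of 110 days Opn1sw was at that median. On replicates 1 and 4 of 110 days Arr3 stood below the Müller glia gene Glul (8.52 and 8.11) and the bipolar gene Cabp5 (8.29 and 8.25). The cone transducin gene Gnat2 stood at 7.96 and 7.64 there. Probes of different genes do not share a scale, and the share of cones in each sort was not tested. The rod transducin gene Gnat1 stood at 2.23 to 2.70 on all 8 arrays, below the median. The mean of the 13 measured rod genes was 4.10, 4.76, 4.92 and 4.15 at 110 days and 4.29, 4.46, 4.67 and 4.69 at 220 days, low on the same 2 arrays as the cone genes, with a median log2 difference of 0.0039 and 0 passed. Some genes of that list are also active in cones, and what rods add to it was not tested. Where leaving out those 2 arrays of 110 days turned the difference of a named gene or moved it by over 1.5 times, the value without them is given here or in the closing section.

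After Benjamini-Hochberg adjustment of the limma p, 0 of 34615 probes (0%) passed the threshold of 0.05 in either direction, and 2331 had an unadjusted p under 0.05. The smallest adjusted p was 0.0973, for Wfdc1. With 1 probe per gene tested alone, 2 of 19902 genes (0.01%) passed, Wfdc1 with an adjusted p of 0.0284 and Kcng4 with 0.0446, both higher at 220 days. The median log2 difference over genes, 220 minus 110 days, was 0.00063, and 30 genes differed by more than 1 and 16 by less than -1. All 220-day arrays stood above all 110-day arrays at 462 genes (2.32%) and below them at 308 genes (1.55%), together 3.87% of the 19902. After each array was centred on its median these counts were 726 and 218.

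**Figure D1:**
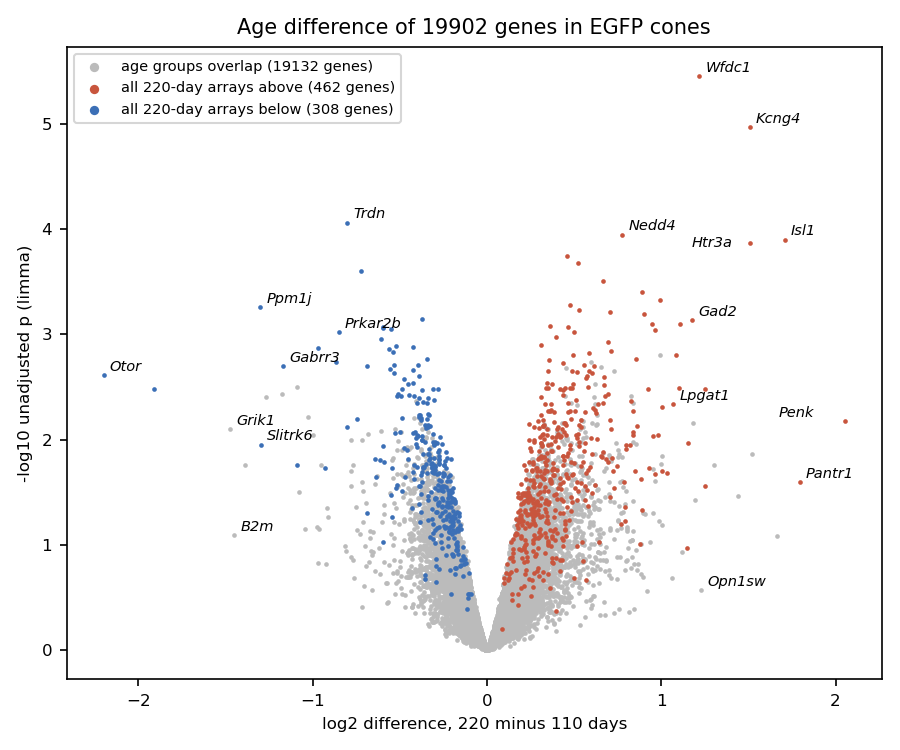
Each point is 1 of 19902 genes, placed by its log2 difference (220 minus 110 days) and by the -log10 of its unadjusted limma p; red and blue points are the 462 and 308 genes whose ages do not overlap. Wfdc1 and Kcng4 stand highest, while Penk and Otor have the largest named differences, 2.05 and -2.20, at larger p.

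Among genes higher at 220 days, a pair of neighbouring genes had the smallest p. Wfdc1 (probe 10575917), a secreted protein with a whey acidic protein domain, stood at 3.93, 3.91, 3.77 and 4.01 at 110 days and at 5.13, 4.86, 5.52 and 4.97 at 220 days. Its lowest 220-day array lay above its highest 110-day array, with a log2 difference of 1.22 ± 0.15 (SE, n = 4 against 4), a 2.33-fold difference. Kcng4 (probe 10582146), a modulatory potassium channel subunit that marks type 5 cone bipolar cells, stood at 4.29, 3.55, 3.19 and 4.08 at 110 days and at 5.50, 5.14, 5.24 and 5.26 at 220 days. It differed by 1.51 ± 0.21 (adjusted p = 0.124 over all probes by limma), and the ages did not overlap. The 2 arrays lowest in Arr3 were the highest of the 110-day arrays in Kcng4. Leaving them out therefore raised the difference, to 1.92, by the choice itself. Fitted on the 8 EGFP arrays alone with the mean of the cone list as a covariate, the difference was 1.65 (adjusted p = 0.00547 by limma). Without the covariate these arrays alone gave an adjusted p of 0.379 for Kcng4.

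Kcng4 and Wfdc1 are neighbours on chromosome 8 in the RefSeq annotation of GRCm38.p6, with 0 measured genes between them. Of 10 flanking genes, 5 on each side, the log2 differences ran from -0.12 to 0.53. The nearest on the side of Kcng4, Adad2, differed by -0.07 ± 0.14, and the nearest on the side of Wfdc1, Atp2c2, by -0.12 ± 0.13 (SE, n = 4 against 4). Among 19860 pairs of neighbouring genes this was the only pair in which both differed by more than 1, and in 0 pairs did both differ by less than -1. In 11 neighbouring pairs both genes were without overlap on the higher side, and in 6 both on the lower side. In 10 pairs the genes were without overlap on opposite sides. Of single genes, 2.32% were without overlap on the higher side and 1.55% on the lower. Whether the pair counts exceed those of unrelated genes was not tested, and they are given as a description only.

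Isl1, a homeobox transcription factor of ON bipolar, amacrine and ganglion cells, stood at 5.67, 5.77, 5.10 and 6.0 at 110 days and at 7.52, 6.86, 8.19 and 6.81 at 220 days. The difference was 1.71 ± 0.30 (adjusted p = 0.241 by limma), a 3.27-fold difference. The serotonin receptor channel subunit gene Htr3a, another marker of type 5 bipolar cells, stood at 3.09, 3.36, 3.12 and 3.26 at 110 days and at 4.84, 4.34, 5.64 and 4.05 at 220 days, a difference of 1.51 ± 0.27 (adjusted p = 0.246). Both genes were without overlap and both were highest on replicate 3 of 220 days. Without that array they differed by 1.43 and 1.20.

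The remaining genes with the smallest p on the higher side differed by 0.46 to 0.99, with adjusted p from 0.239 to 0.498 by limma, and none of them overlapped between the ages. Nedd4, a ubiquitin ligase, differed by 0.78 ± 0.14, and Cul5, a scaffold of ubiquitin ligases, by 0.67 ± 0.13. Psmg2, a chaperone of proteasome assembly, stood at 6.28 to 6.51 at 110 days and at 6.75 to 6.99 at 220 days. Mob2, a partner of kinases, differed by 0.99, Nicn1 by 0.89, Cdc7, a kinase of DNA replication, by 0.53, Gatad2b, a subunit of the NuRD repressor complex, by 0.52 and Rprd1b by 0.47. These 8 differences were each smaller than those of the 3 bipolar genes above. The SD within an age ran from 0.07 for Gatad2b to 0.36 for Mob2, both at 110 days. Cul5 and Cdc7 were dim, with means of 2.37 and 2.46 at 110 days and 3.04 and 2.99 at 220 days. The median level over genes was 2.85.

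For Lpgat1, an acyltransferase of phospholipid synthesis, the call depended on the arrays that estimate the spread. It stood at 3.38, 3.32, 3.45 and 3.47 at 110 days and at 4.36, 4.43, 4.51 and 4.60 at 220 days, with an SD of 0.07 and 0.10 within the ages. The difference was 1.07 ± 0.31 (adjusted p = 0.600 by limma over all 12 arrays). Fitted on the 8 EGFP arrays alone, the same difference had an adjusted p of 0.0375 and Lpgat1 was the only gene called. The SD of Lpgat1 on the 4 eNpHR-EYFP arrays, which enter the first estimate, was 0.82.

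Among genes above the median level and without overlap, the largest differences on the higher side were those of Penk and Pantr1. Penk, the enkephalin precursor of some amacrine cells, stood at 3.81, 2.98, 2.20 and 2.87 at 110 days and at 6.32, 5.90, 3.91 and 3.95 at 220 days, a difference of 2.05 ± 0.62. Replicates 1 and 2 of 220 days stood more than 1 above the other two, and the gap between the ages was narrow. Pantr1, a long non-coding RNA gene, stood at 6.60, 6.24, 6.02 and 5.50 and then at 8.42, 8.47, 7.12 and 7.53, a difference of 1.79 ± 0.70. Fah, the last enzyme of tyrosine breakdown, differed by 1.15 ± 0.66, and by 0.65 without replicate 2 of 110 days.

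**Figure D2:**
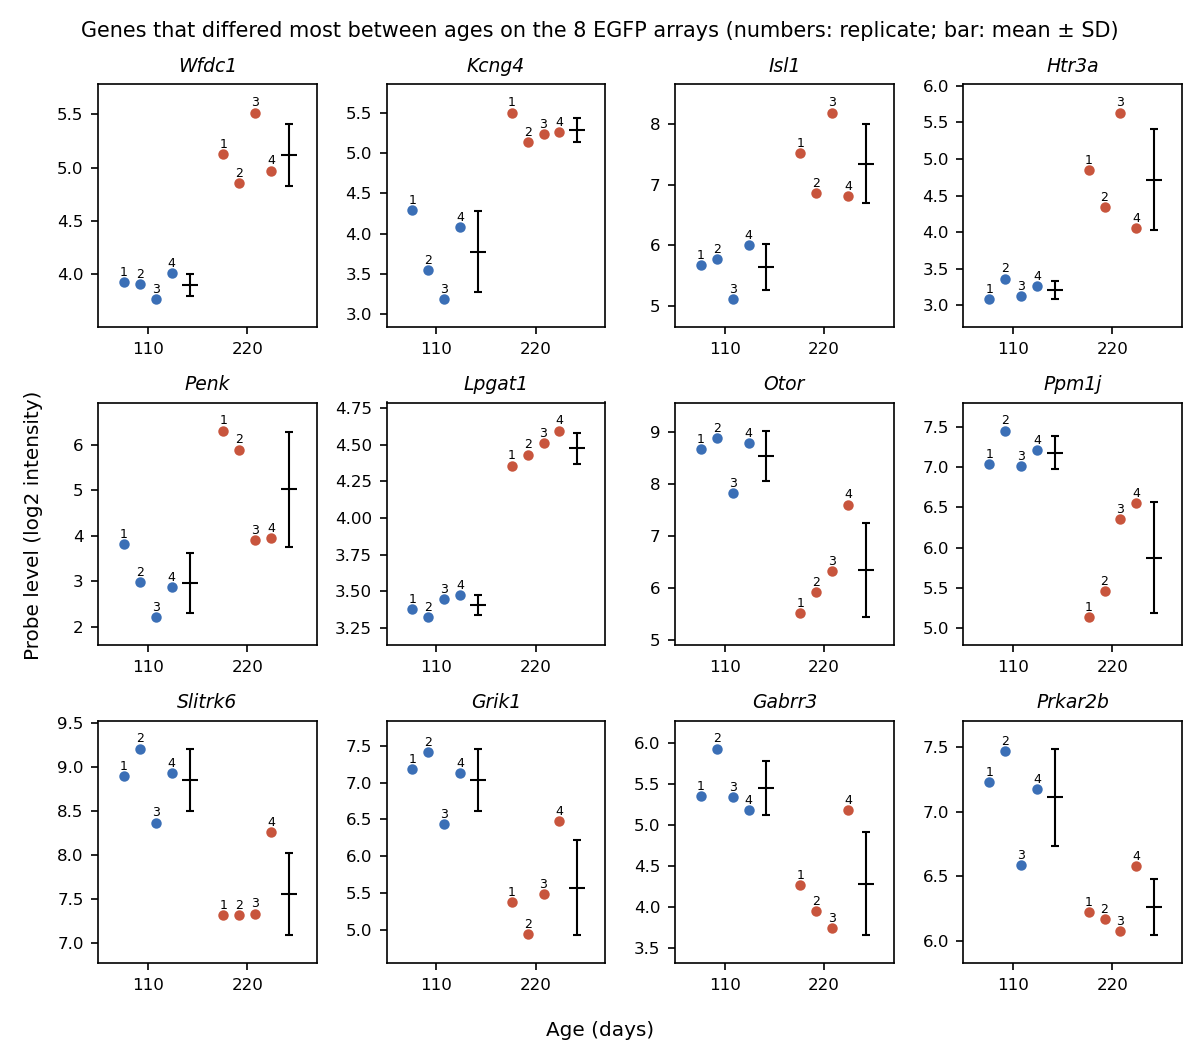
Log2 level of 12 genes on each EGFP array by age in days, with the replicate number above each point and the mean ± SD of 4 arrays as a bar. The ages do not overlap except in Grik1, where replicate 4 of 220 days (6.48) stands above replicate 3 of 110 days (6.43).

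On the lower side the largest difference was that of Otor, the gene of a secreted protein first known from the inner ear. It stood at 8.67, 8.88, 7.82 and 8.78 at 110 days and at 5.51, 5.92, 6.32 and 7.60 at 220 days. The difference was -2.20 ± 0.57 (SE, n = 4 against 4, adjusted p = 0.581 by limma), and the ages were separated only by the step from 7.82 to 7.60. Ppm1j, a protein phosphatase gene, stood at 7.03, 7.46, 7.01 and 7.21 and then at 5.13, 5.46, 6.36 and 6.56, a difference of -1.30 ± 0.28 (adjusted p = 0.498). In both genes replicate 4 of 220 days was the nearest of its age to the 110-day arrays and replicate 1 the farthest.

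Prkar2b, the regulatory subunit of protein kinase A whose antibody labels type 3b OFF bipolar cells, stood at 7.23, 7.47, 6.58 and 7.17 at 110 days and at 6.22, 6.17, 6.08 and 6.58 at 220 days. Its difference was -0.85 ± 0.19, with replicate 3 of 110 days and replicate 4 of 220 days almost touching. Slitrk6, a synaptic adhesion protein, stood at 8.89, 9.21, 8.36 and 8.93 and then at 7.31, 7.31, 7.33 and 8.26, a difference of -1.30 ± 0.43. Gabrr3, a GABA receptor subunit of the rho class, stood at 5.36, 5.94, 5.34 and 5.19 and then at 4.27, 3.95, 3.74 and 5.18, a difference of -1.17 ± 0.29. In these genes too, replicate 4 of 220 days was the highest of its age.

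The other genes of the lower side differed less. Trdn, triadin of muscle calcium release, has 19 probes; its brightest differed by -0.80 ± 0.14, while the mean of all its probes differed by -0.24 (adjusted p = 0.677). Nnat, a small membrane protein, differed by -0.80 ± 0.25 and Lrrtm3, a postsynaptic adhesion protein, by -0.74 ± 0.22. The muscarinic receptor gene Chrm3 differed by -0.60, the histone gene H4c3 by -0.61, Nxph3, a neurexin ligand, by -0.54, Sncb, beta-synuclein, by -0.34 and Hmga2, a chromatin protein, by -0.37. Wfdc6a (-0.59), Zfp951 (-0.52), Apobec2 (-0.53) and Cd244a (-0.39) complete the 12 genes of smallest p on this side. Their adjusted p lay from 0.239 to 0.581 by limma. Several of them were dim. Wfdc6a, Zfp951 and H4c3 had means of 2.39, 2.44 and 2.52 at 110 days and of 1.80, 1.91 and 1.91 at 220 days. These lie under 2.85, the median level over genes. Chrm3 and Cd244a stood at 3.39 and 3.11 and then at 2.79 and 2.72.

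Promoters of 4 leading genes are shown, of which Kcng4 and Isl1 were higher and Ppm1j and Otor lower at 220 days. They were picked from 26 leading genes with a promoter entry and do not stand for the others, most of which lack the core marked below. Each run holds 250 bases before and 30 after the RefSeq start (GRCm38.p6), 5′ to 3′ on the strand of the gene. Capitals mark TAATCC or its reverse complement GGATTA, the core bound by the photoreceptor and bipolar cell factors CRX and OTX2. The windows are chr8:119635651-119635930 (minus strand) for Kcng4, chr13:116309659-116309938 (minus strand) for Isl1, chr3:104780806-104781085 (plus strand) for Ppm1j and chr2:143078143-143078422 (plus strand) for Otor.
Kcng4: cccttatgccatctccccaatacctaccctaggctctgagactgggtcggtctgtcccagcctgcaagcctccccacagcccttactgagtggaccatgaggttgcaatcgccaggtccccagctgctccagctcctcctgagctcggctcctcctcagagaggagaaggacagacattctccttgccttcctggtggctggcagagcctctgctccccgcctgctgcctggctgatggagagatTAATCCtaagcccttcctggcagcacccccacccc
Isl1: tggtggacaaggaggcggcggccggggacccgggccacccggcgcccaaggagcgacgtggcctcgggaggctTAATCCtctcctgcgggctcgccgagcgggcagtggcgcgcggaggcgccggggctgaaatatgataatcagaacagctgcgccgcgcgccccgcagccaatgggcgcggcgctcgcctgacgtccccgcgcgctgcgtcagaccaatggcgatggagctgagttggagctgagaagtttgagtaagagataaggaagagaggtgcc
Ppm1j: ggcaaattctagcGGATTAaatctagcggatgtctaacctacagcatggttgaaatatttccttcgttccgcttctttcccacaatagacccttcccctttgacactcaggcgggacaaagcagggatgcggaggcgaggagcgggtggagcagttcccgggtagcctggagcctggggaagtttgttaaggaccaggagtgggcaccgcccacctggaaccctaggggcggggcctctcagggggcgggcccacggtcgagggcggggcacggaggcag
Otor: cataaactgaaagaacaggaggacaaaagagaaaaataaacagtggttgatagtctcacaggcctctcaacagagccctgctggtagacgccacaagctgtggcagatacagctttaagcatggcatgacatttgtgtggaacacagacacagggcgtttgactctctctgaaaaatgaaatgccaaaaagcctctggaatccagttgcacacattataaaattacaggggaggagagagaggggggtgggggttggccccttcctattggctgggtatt

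The core begins 5 bases before the start of Kcng4 and 177 before that of Isl1, and its reverse complement 237 before that of Ppm1j. The Otor window holds none. Over both strands the letters occur in 2224 of 32851 promoters of the same length (6.77%). They occur in 4 of the 26 leading genes with a promoter entry, which are these 3 and Cul5. The 6.77% counts single promoters, whereas a gene counts if any of its promoters holds the letters. The shares are therefore not of the same unit, and enrichment was not tested. A match is a description of the letters and not a bound site. The transcript of Otx2 stood at 6.39, 6.69, 6.19 and 6.38 at 110 days and at 5.68, 5.35, 6.23 and 6.21 at 220 days, a difference of -0.55 ± 0.19 with overlap. That of Crx differed by -0.07 ± 0.25, within its spread.

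Bipolar cell genes differed in both directions. Of 40 listed, 37 were measured, and the ages were without overlap for 6 higher and 2 lower, 21.6% of the list against 3.87% of all genes, while 0 passed over all probes. The list was chosen with these data known and partly holds the leading genes above. Its median log2 difference was 0.04, beside 0.00063 over all genes, and its members ran from -1.47 to 1.71. Of the 37 measured, 19 had a difference above 0, beside 9993 of 19902 genes. The mean level of the list was 4.0 to 4.37 at 110 days and 4.05 to 4.46 at 220 days, and these ranges overlapped. Which cells of the sort these transcripts came from was not tested.

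The higher members beside Isl1, Htr3a and Kcng4 include parts of the ON cascade. The members named in this paragraph and the next beyond those above were chosen after their values were seen. The rest of the list, Gpr179 and Rgs11 among them, is not given gene by gene. Gng13, the G protein gamma subunit of ON bipolar cells, stood at 6.58, 6.72, 6.28 and 6.67 at 110 days and at 7.39, 7.08, 8.39 and 7.18 at 220 days, a difference of 0.95 ± 0.31. Trpm1 stood at 3.35, 3.42, 2.72 and 3.46 and then at 3.72, 3.81, 4.23 and 3.68, and Grm6 at 3.26, 2.96, 3.38 and 3.31 and then at 3.50, 3.47, 4.04 and 3.67. All 3 genes were without overlap and highest on replicate 3 of 220 days, the array also highest in Isl1 and Htr3a. Their adjusted p lay from 0.623 to 0.637 by limma. Cdh9, a cadherin of type 5 bipolar cells that was not on the list, stood at 2.04, 1.85, 1.77 and 2.14 and then at 3.29, 2.56, 4.45 and 2.49. It differed by 1.25 ± 0.34, and by 0.83 without replicate 3 of 220 days. Not every ON gene stood higher: Nyx, nyctalopin, differed by -0.34 ± 0.16, and Prkca, the kinase that marks rod bipolar cells, was at 2.32 to 2.56 on all arrays.

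The 2 lower members without overlap were Slitrk6 and Gabrr3, given above. Lower members with overlap include OFF bipolar genes. Grik1 stood at 7.18, 7.42, 6.43 and 7.13 at 110 days and at 5.38, 4.94, 5.49 and 6.48 at 220 days, a difference of -1.47 ± 0.46 with 1 array of each age overlapping. Fezf2, a zinc finger factor, differed by -0.95 ± 0.34. Irx5 and Irx6, homeobox genes of OFF types, differed by -0.37 ± 0.19 and -0.35 ± 0.24, and Irx6 by 0.11 without the 2 arrays lowest in Arr3. Vsx1, a homeobox factor found mainly in OFF types, differed by 0.18 ± 0.19, and Cabp5, a calcium-binding protein of several types, by -0.15 ± 0.37, so that not every such gene stood lower. Without those arrays Vsx1 differed by 0.45 and Cabp5 by 0.27. Pcp2, of ON types, differed by 0.75 ± 0.36 with overlap, by 1.33 without those 2 arrays and by 0.48 without replicate 3 of 110 days.

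**Figure D3:**
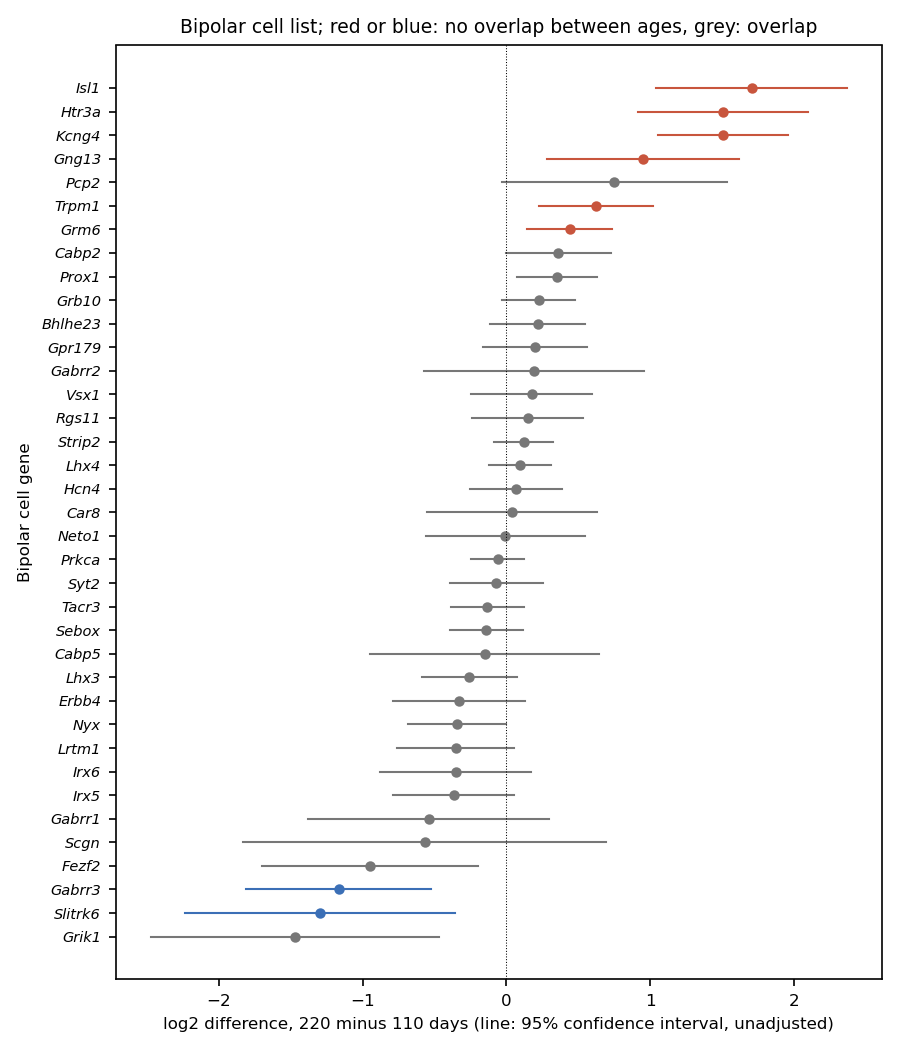
Log2 difference (220 minus 110 days) of the 37 measured bipolar cell genes, with the unadjusted 95% confidence interval as a line; red and blue mark genes whose ages do not overlap. Isl1, Htr3a and Kcng4 stand at the top (1.71, 1.51 and 1.51) and Slitrk6 and Grik1 at the bottom (-1.30 and -1.47).

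Amacrine cell genes stood mostly higher at 220 days. Of 37 measured, 31 had a difference above 0, beside 9993 of 19902 genes, and the median was 0.16. Over 21 alternatives the median ran from 0.12 to 0.34, though some of these change only the estimate of the spread and cannot move it. The ages were without overlap for 3 genes, 8.11% against 3.87% of all genes, which are Penk, Gad2 and Maf, and 0 passed. Gad2, which makes the transmitter GABA, stood at 4.82, 3.78, 3.70 and 3.75 at 110 days and at 5.49, 5.55, 4.84 and 4.87 at 220 days, a difference of 1.18 ± 0.26 (adjusted p = 0.498 by limma). The higher level of replicate 1 of 110 days almost met the lower 220-day arrays. The related enzyme gene Gad1 differed by 0.77 ± 0.30, the tachykinin gene Tac1 by 1.44 ± 0.60, the transcription factor genes Tfap2b and Pax6 by 1.0 ± 0.36 and 0.84 ± 0.36, and the calcium-binding protein gene Calb2 by 0.86 ± 0.28, all with overlap. Tac1 differed by 0.82 without replicate 3 of 110 days and by 2.36 without replicates 1 and 4, and Calb2 by 0.55 without replicate 1 of 220 days. The mean of the list was 3.68, 3.30, 3.13 and 3.47 at 110 days and 4.01, 3.82, 3.57 and 3.61 at 220 days. Replicates 1 and 2 of 220 days were the highest, and these are not the array highest in the ON bipolar genes. Replicate 3 of 110 days, highest in Arr3, was the lowest in amacrine genes, and the part of cell composition in the list was not tested.

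Cone phototransduction genes differed more within 110 days than between the ages. The SD was larger at 110 days in 16 of 21 measured genes, with a median SD of 0.88 at 110 days and 0.27 at 220 days. Over all genes the SD was larger at 110 days in 58.3%, with medians of 0.17 and 0.15. The mean of the list was 4.30, 5.85, 6.24 and 4.54 at 110 days and 5.05, 5.58, 5.77 and 5.66 at 220 days. The median difference of the list was 0.24, with 12 of 21 genes above 0 and 0 passed, and over 21 alternatives it ran from -0.61 to 0.45.

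Among the visual pigments, the medium-wave opsin gene Opn1mw stood at 6.28, 9.10, 10.05 and 6.02 at 110 days and at 6.98, 8.97, 8.37 and 8.71 at 220 days. The differences were 0.40 ± 0.89 for Opn1mw, 1.23 ± 1.06 for Opn1sw and 0.82 ± 1.0 for Arr3, whose 95% confidence interval ran from -1.36 to 3.0. The 220-day arrays lay inside the range of the 110-day arrays for all 3 genes. In the transduction cascade, Gnat2, the cone transducin, stood at 7.96, 9.17, 9.66 and 7.64 and then at 7.69, 8.52, 8.75 and 8.98, a difference of -0.12 ± 0.48. Pde6h, the inhibitory subunit of the cone phosphodiesterase, differed by 0.84 ± 0.97 and its catalytic partner Pde6c by 0.56 ± 0.77. The guanylate cyclase activator Guca1a, at 7.25, 11.22, 11.61 and 8.62 and then at 10.19, 10.66, 11.04 and 11.06, differed by 1.06 ± 0.80.

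Without the 2 arrays of 110 days lowest in Arr3, the differences turned to -1.35 for Arr3, -1.04 for Opn1sw, -1.31 for Opn1mw, -1.14 for Pde6h, -0.99 for Pde6c and -0.68 for Guca1a. Those of Gnat2 and Gngt2 went further below 0, to -0.93 and -1.32, that of Crx to -0.50, and that of Gnb5 was 0.26. Since Arr3 itself picked those arrays, this turn follows from the choice and is no measure of age. Other genes of the cascade had smaller errors. Rgs9, which ends the response with Gnb5, stood at 3.07 to 3.35 at 110 days and at 3.42 to 3.70 at 220 days, a difference of 0.33 ± 0.10. It was the only list member without overlap, 4.76% of 21 against 3.87% of all genes. Gnb5 differed by 0.51 ± 0.18. The channel genes Cnga3 and Cngb3 differed by 0.13 ± 0.13 and -0.41 ± 0.29, with Cnga3 at 2.0 to 2.35 on all arrays, and the transducin subunit gene Gngt2 by -0.57 ± 0.45.

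**Figure D4:**
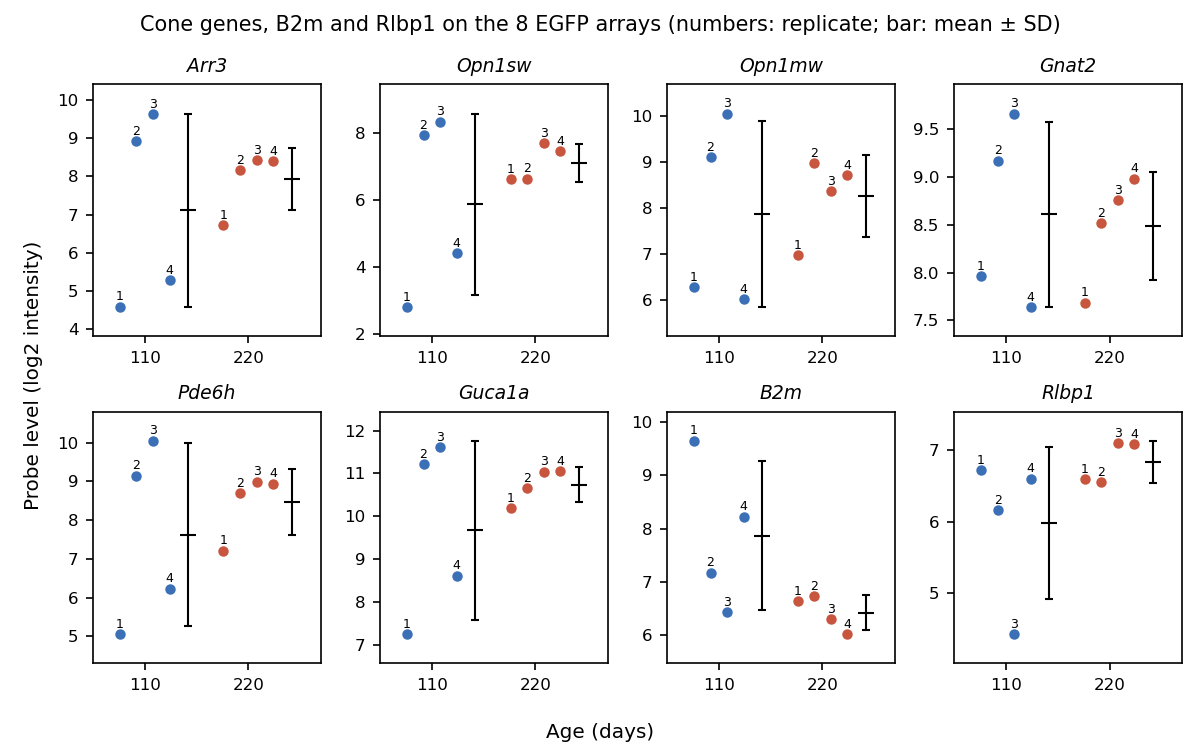
Log2 level of 6 cone genes, B2m and Rlbp1 on each EGFP array by age in days, with replicate numbers and the mean ± SD of 4 arrays as a bar. Replicates 1 and 4 of 110 days are lower than replicates 2 and 3 in all 6 cone genes and higher in B2m (9.65 and 8.22), and replicate 3 of 110 days is low in Rlbp1 (4.42).

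Genes of the cilium and outer segment, the light-sensing end that cones lose in such retinas, included 4 without overlap on the higher side and 0 on the lower, 10.5% of 38 against 3.87% of all genes. The genes were Kif3a, a motor of ciliary transport, with 0.62 ± 0.16, Ift20, an intraflagellar transport protein, with 0.45 ± 0.12, and the Bardet-Biedl genes Bbs5 and Bbs7 with 0.50 ± 0.18 and 0.34 ± 0.12. Ift20 stood at 7.94, 8.20, 8.12 and 7.84 at 110 days and at 8.76, 8.33, 8.51 and 8.29 at 220 days. Bbs5 differed by 0.31 without the 2 arrays lowest in Arr3. The median of the list was 0.04, which turned to -0.11 without those 2 arrays, and 0 of its members passed. The mean of the list was 3.93, 4.35, 4.57 and 3.91 at 110 days and 4.08, 4.28, 4.34 and 4.37 at 220 days, lowest on the same 2 arrays.

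Müller glia genes were present on all arrays and had the largest list median, 0.26, with 24 of 31 above 0, 0 without overlap and 0 passed. Their mean was 4.93, 4.58, 4.19 and 4.65 at 110 days and 4.92, 4.63, 4.81 and 4.91 at 220 days, with replicate 3 of 110 days the lowest. Over 21 alternatives the list median ran from 0.07 to 0.51. Rlbp1, a retinoid carrier, stood at 6.73, 6.16, 4.42 and 6.60 and then at 6.59, 6.56, 7.10 and 7.09, a difference of 0.86 ± 0.59. Glul, glutamine synthetase, stood at 8.52, 7.80, 6.10 and 8.11 and then at 8.39, 7.76, 8.38 and 7.97, and Dkk3 differed by 0.50 ± 0.23. Without replicate 3 of 110 days Rlbp1 differed by 0.34 and Glul by -0.019, and without replicates 1 and 4 by 1.54 and 1.18. Of the 4 members of smallest p by limma, Dkk3 and Ccn1 had differences above 0 and Sox9 and Slc38a3 below 0. The lowest member of the list differed by -0.30. Gfap, the filament of reactive glia, was at 2.29 to 2.46 and the microglia gene Aif1 at 1.68 to 2.10 on all arrays, near the low end of the range.

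The immune lists did not share a direction, and 0 of their members passed. Genes of interferon response and antigen presentation had a median of -0.15 with 9 of 38 above 0, and of 0.02 without the 2 arrays lowest in Arr3. Parp14, the member of smallest p by limma, had a difference above 0, and Tap2, Nlrc5 and Trim30a, next by p, below 0. The members ran from -1.45 to 0.32. B2m, the invariant chain of class I antigen presentation, stood at 9.65, 7.17, 6.43 and 8.22 at 110 days and at 6.64, 6.73, 6.29 and 6.02 at 220 days, a difference of -1.45 ± 0.76. Its 2 highest arrays were the 2 lowest in Arr3, and without them the difference was -0.38. The MHC class II chain gene H2-Aa, at 2.23 to 2.94 and then 1.81 to 2.10, was without overlap and differed by -0.55 ± 0.14, and by -0.35 without the same 2 arrays. The microglia list around it had a median of -0.09 with 7 of 35 above 0. Complement genes had a median of 0.03 with 9 of 17 above 0, and genes of injury and gliosis -0.007 with 11 of 27 above 0.

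Metabolic and housekeeping lists differed little. Of 73 oxidative phosphorylation genes, which supply most ATP of photoreceptors, the median was 0.04 and the members ran from -0.22 to 0.53. Glycolysis had a median of 0.06 over 25 genes, with Pfkp, a phosphofructokinase, at 0.79 ± 0.35 and without overlap, and Ldhb, a lactate dehydrogenase subunit, at 0.66 ± 0.42, or 0.36 without replicate 3 of 110 days. Hk1, the main hexokinase of neurons, was without overlap on the lower side with -0.17 ± 0.10. Insulin and mTOR signalling, which is known to affect cone survival in such retinas, had a median of 0.01 over 33 genes, with the kinase gene Pik3ca at 0.44 ± 0.12 and without overlap and the receptor gene Insr at 0.54 ± 0.25, which was 0.34 without replicate 3 of 110 days and 0.89 without replicates 1 and 4.

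Autophagy and lysosome genes stood above 0 in 33 of 39 with a median of 0.09, among them the proton pump gene Atp6v1h at 0.46 ± 0.15 and Map1lc3b, of the autophagosome membrane, at 0.32 ± 0.13, or 0.21 without replicate 4 of 110 days. Tfeb, at rank 2 of the list by limma p, had a difference below 0. The members of the list ran from -0.34 to 0.46. Proteasome genes had a median of 0.17 over 31, and ribosomal protein genes -0.09 over 54. Antioxidant genes were without overlap for 2 higher and 2 lower of 33, 12.1% against 3.87% of all genes. The higher were the mitochondrial superoxide dismutase gene Sod2 with 0.44 ± 0.16 and the peroxiredoxin gene Prdx1 with 0.38 ± 0.19, and the lower the secreted dismutase gene Sod3 with -0.26 ± 0.12 and the secreted glutathione peroxidase gene Gpx3 with -0.18 ± 0.10. Without the 2 arrays lowest in Arr3 these were 0.28, 0.17, -0.17 and -0.11, and without replicate 4 of 110 days alone Prdx1 differed by 0.15 and Sod2 by 0.26. Both lower genes were dim, with Sod3 at 2.74 to 3.12 and Gpx3 at 1.89 to 2.35 over the EGFP arrays. The glutathione transferase gene Gstp1 differed by 0.62 ± 0.17 with overlap. The small heat shock protein gene Cryab, on the crystallin list, stood at 5.34, 5.32, 4.19 and 5.33 and then at 6.09, 5.83, 6.24 and 5.96, a difference of 0.98 ± 0.31 without overlap. Esam, of vessel cells, differed by -1.0 ± 0.32 with overlap. Over all 33 lists the medians lay between -0.15 and 0.26, and 0 members passed over all probes.

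**Figure D5:**
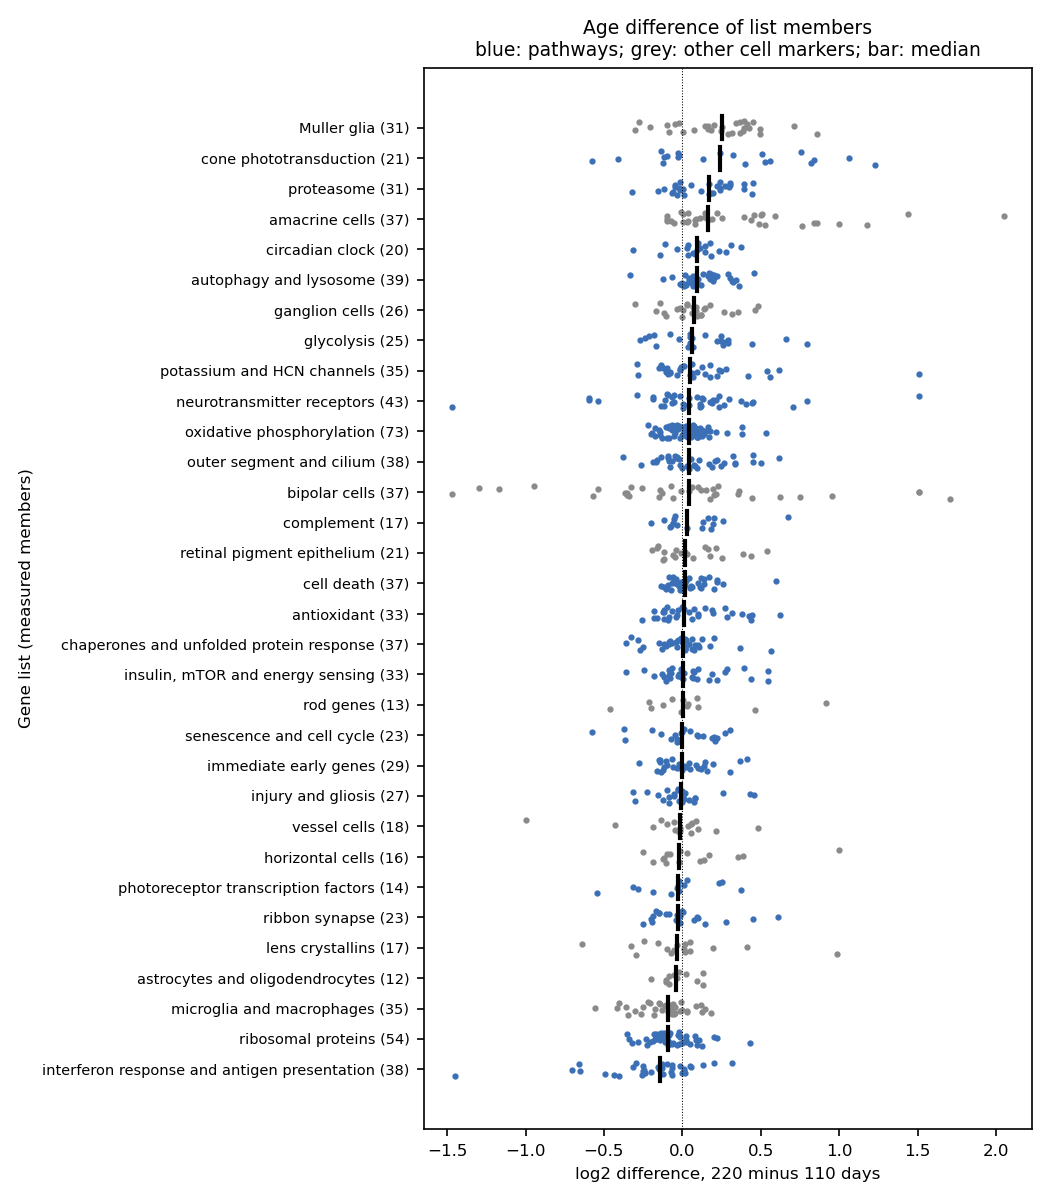
Log2 difference (220 minus 110 days) of each measured member of the gene lists, with the number of measured members in brackets and the list median as a black bar. The medians lie between -0.15 and 0.26, and the bipolar list has the widest range, from -1.47 to 1.71. Red blood cell genes, with 2 measured, are not drawn.

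For most genes these arrays bound the age difference in measured intensity, which for a dim probe is no bound on the difference in RNA. The 95% confidence interval from the limma fit, unadjusted, lay wholly inside a 2-fold difference in either direction for 19059 of 19902 genes (95.8%). With probes under the median level left out it did so for 9950 of 10735 genes. Over all genes the median SE was 0.13 and the 90th percentile 0.24. Cone genes such as Arr3, Opn1sw and Guca1a were outside this group, and an age difference of 2-fold in them could have been missed. The SD exceeded 1 in 79 genes at 110 days and in 23 at 220 days.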

How the data were processed

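RNA of 500 sorted cells per array was measured on Affymetrix arrays, and the authors deposited 1 linear intensity per probe and array. RMA and affy were used per the submitters' processing notes, with no version named there. RMA corrects background, normalizes between arrays and summarises probes, and no detection value was used here, so a dim probe may understate a difference. From line 13588 the EGFP values stood beside wrong probes, because these columns held 34729 values against 34760. They were realigned by a forward-backward algorithm against the mean profile of the eNpHR-EYFP arrays (t distribution with 3 degrees of freedom, scale 0.25, probability 0.001 per lost line, posterior of at least 0.999), which moved 21031 lines and left out 114. EGFP and eNpHR-EYFP arrays correlated at 0.421 before and 0.944 after.

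Log2 was taken without a pseudocount. A model of 3 groups over 12 arrays was fitted with limma 3.58.1 in R 4.3.3, with Benjamini-Hochberg adjustment over 34615 probes. A gene is its brightest probe naming 1 gene by the platform annotation (21631 probes name 1 gene, 1308 several and 11790 none, and 21544 of the first matched RefSeq). P-values measure the spread between these arrays. Named genes are the 12 of smallest p per direction, the 8 largest differences per direction without overlap and above the median level, up to 4 of smallest p per list, and a set of marker genes, without predicted genes, receptors of smell, small RNAs and pseudogenes. Others are said to be chosen after their values were seen. Besides those said in the text, these are Adad2, Atp2c2, Lpgat1, Plpp3, Maf, Gad1, Pax6, Tac1, Guca1a, Gngt2, Hk1, Prdx1, Sod3 and Gpx3. Of 1056 list entries 958 were measured. The members, lists and rules were chosen with earlier results of these data known. Equal replicate numbers did not pair the arrays. Alternatives are given in the closing section.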

Additional observations from a re-analysis of the deposited data

Results flagged for a closer look

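Single arrays stood away from the other 3 of their age in 18 of 190 groups of 1 gene at 1 age, by the gap to the nearest array relative to the range (Dixon's 95% critical value), and chance flags about 5% of groups. At 110 days these were Gad2 on replicate 1 (4.82, others 3.70 to 3.78), Tfap2b on replicate 1 (5.39, others 4.18 to 4.38) and Cd244a on replicate 1 (2.87, others 3.19 to 3.22). Trdn stood low on replicate 2 (6.18, others 6.49 to 6.52). Trpm1 (2.72) and Cryab (4.19) stood low on replicate 3, and Sod2 (4.97) and Prdx1 (7.46) on replicate 4, where Gpx3 stood high (2.35).

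At 220 days replicate 1 stood low in the cone genes Arr3 (6.72, others 8.16 to 8.42), Pde6c (4.93, others 5.91 to 6.05) and Pde6h (7.21, others 8.70 to 8.99), and high in Gfap (2.41, others 2.29). On replicate 2 Hk1 stood low (10.5, others 10.8) and Sod3 high (2.79, others 2.74). In Gfap and Sod3 the other 3 arrays held the same value. Any small step is then flagged, and the critical value does not apply to these dim genes. Gnb5 (7.83) and Cnga3 (2.35) stood high on replicate 3, and Slitrk6 on replicate 4 (8.26, others 7.31 to 7.33).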

How the results depend on the processing

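No probe passed after quantile normalization, with array weights, a trended prior, median centring, a filter on genes under the median level, a posterior of 0.9 or the lines in place. With the replicate number as a block 0 passed, and the numbers share nothing but the number (correlations of deviations from -0.0387 to 0.0737). The count was 1 on the EGFP arrays alone (Lpgat1). It was 2 with the brightest probe per gene alone and 2 when the probes of a gene were averaged (Wfdc1 and Kcng4 both times). Without the 2 arrays lowest in Arr3 it was 1 (Kcng4, adjusted p = 0.00823 by limma). Those 2 were the highest of their age in Kcng4, so that their removal raised its difference. The count was 4 with the mean of the cone list as covariate, fitted on the EGFP arrays alone (Kcng4, Lpgat1, Plpp3 and probe 10342628). It was 0 to 1 without each array in turn, the 1 being C130036L24Rik without replicate 3 of 220 days (1.30, adjusted p = 0.0253 by limma). Genes without overlap numbered 219 of 5007 on the lines in place, 3582 without the 2 arrays and 1144 to 1567 without each array, where fewer arrays must separate. Genes with an interval inside 2-fold numbered 9950 of 10735 above the filter and 4778 of 5007 on the lines in place, where fewer genes enter.

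Of 95 genes, each with a value in 19 to 21 alternatives, 81 turned in none of those. Some alternatives, such as the EGFP arrays alone or a trended prior, change only the estimate of the spread and could turn no difference. Without the 2 arrays lowest in Arr3 the differences turned to -1.35 for Arr3, -1.04 for Opn1sw, -1.31 for Opn1mw, -0.99 for Pde6c, -1.14 for Pde6h, -0.68 for Guca1a, 0.037 for Gnat1, 0.10 for Adad2, 0.082 for Atp2c2, 0.11 for Irx6 and 0.27 for Cabp5. Plpp3 differed by 1.12, and by 1.98 without them, and Gfap by -0.08 and -0.14. Gnat1 also turned after quantile normalization (0.017), median centring (0.022) and array weights (0.012), and Opn1mw with the covariate (-0.19). Without each array the ranges that crossed 0 were -0.024 to 1.66 for Arr3, -0.22 to 1.13 for Opn1mw, -0.014 to 1.65 for Pde6h, -0.10 to 0.053 for Gnat1, -0.45 to 0.23 for Gnat2, -0.27 to 0.11 for Crx, -0.019 to 0.79 for Glul and -0.22 to 0.036 for Adad2. The cause was not tested, except that the 2 arrays were chosen by a cone gene.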
